A study of Mus musculus with 8 samples.

Results

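The 10 imprinted genes studied here have been linked to neural stem cells. They were *Nnat*, *Peg3*, *Ndn*, *Dlk1*, *Igf2*, *H19*, *Plagl1*, *Zdbf2*, *Impact* and *Snrpn*, and were followed through the cell classes of the adult mouse dentate gyrus. They were chosen by name, 10 of the 31053 genes in the count tables, and all 10 were found. Of these, 7 had at least 100 UMIs (unique molecular identifiers, each standing for 1 captured RNA molecule) over all cells, as had 13151 genes in all, while *Dlk1* had 3, *Igf2* 24 and *H19* 12. The cells came from Nestin-GFP mice of 8 weeks, in which green fluorescent protein is driven by sequences of the stem cell gene Nestin, either after a sham craniotomy (Control) or after unilateral controlled cortical impact, a model of traumatic brain injury (TBI). At 15 days after surgery the dentate gyri were dissected, GFP+ live cells were sorted, and the cells of each condition were pooled into 1 library of the 10x 3' assay. The labels list 4 Sham and 4 TBI animals, and the animals cannot be told apart within a library. The study's methods state larger numbers of animals for these libraries, and the labels tie no animal to a table, so how many animals each library holds is not settled here. No comparison between conditions therefore has replicates, no p-value is given, and every interval covers counting error only, at 95%. Library and condition cannot be told apart.

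An imprinted gene is transcribed mainly from the chromosome of 1 parent, and imprinted genes lie in groups that share a control region methylated in the egg or the sperm. In the brain they are known for roles in growth, neuronal differentiation and metabolism, and several have been studied as regulators of stem cell quiescence. The reads were not assigned to parental chromosomes, so the levels given here say nothing of which copy was active.

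The Control library kept 3049 cells (24629521 UMIs, median 6928 per cell) and the TBI library 5036 cells (31503415 UMIs, median 5663), and 3 barcodes occurred in both libraries. Clusters were made without the imprinted genes, so that their levels did not make the classes, and were named from fixed markers, between 4 and 10 of which were found in 10% of the cells of each named cluster. The classes were cycling progenitors (330 cells), radial-glia-like (RG-like) progenitors (282), early neuroblasts (840), late neuroblasts with immature granule neurons (989, called late neuroblasts from here on), astrocytes (1449), oligodendrocyte precursors (OPC, 81), oligodendrocytes (1671), microglia (128), endothelial cells (946), pericytes (847), smooth muscle (91), fibroblast-like cells (30) and neurons marked by *Reln* (110). A further 291 cells in 4 clusters were left unnamed, among them 100 cells whose leading genes were of DNA replication (*Ung*, *Mcm3*). That cluster was nearest to cycling progenitors, with 8 of their markers detected, but had more markers of RG-like progenitors among its leading genes. Its cells are therefore in neither progenitor class in the levels below. Levels are UMIs per 1000000 UMIs of a class (CPM), without the nuclear RNA *Malat1*. The assay reads 1 end of each transcript, and levels are compared between classes and not between genes.

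The name of the gene set was borne out in part. *Nnat* was highest in early neuroblasts, and the other 6 genes with at least 100 UMIs were highest in *Reln* neurons with both libraries summed, so 0 of the 7 peaked in a progenitor class. How often genes in general peak in each class was not counted. These counts therefore do not set the 7 genes apart from others. *Nnat*, *Ndn*, *Snrpn*, *Peg3*, *Zdbf2* and *Impact* were measured in both progenitor classes. *Plagl1* was at 1.46 CPM in cycling and 1.49 CPM in RG-like progenitors, against 13.9 in oligodendrocytes. *Dlk1* had 0 UMIs in both, a count that allows up to 0.627 CPM in cycling and 0.893 CPM in RG-like progenitors. *Igf2* had 0 and 1 UMIs there and *H19* 4 and 0.

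**Figure D1:**
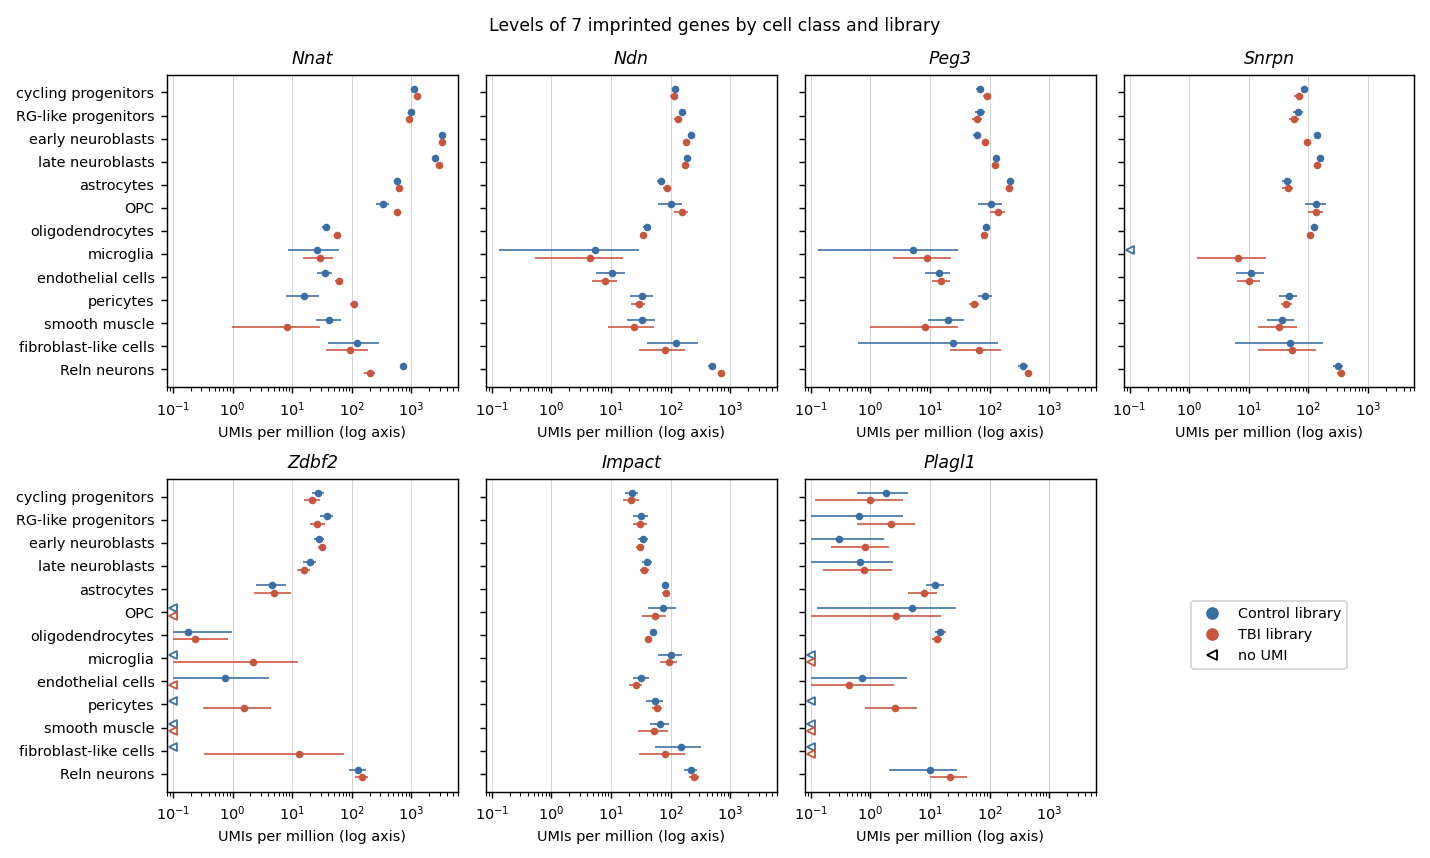
Level of each of the 7 genes with at least 100 UMIs (CPM, log axis) in 13 cell classes, in the Control and the TBI library, with 95% Poisson intervals cut at the left edge, and open triangles where no UMI was counted. Nnat is highest in early neuroblasts, and the other genes are highest in Reln neurons in both libraries, except Plagl1, which in Control is higher in oligodendrocytes (15.0 CPM) than in Reln neurons (9.84 CPM).

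*Snrpn* and *Ndn* lie in the same imprinted region of chromosome 7, the mouse counterpart of the Prader-Willi region, and 2206 kb apart. Over the 42 clusters their levels had similar patterns. The stretches before the start of *Ndn* and before most *Snrpn* starts held a shared run of letters. The same run stood before the start of *Nnat* on chromosome 2. The 3 stretches of 250 bases are shown for this reason, with the run CGCATGCG in capitals, which reads the same on both strands. They are from RefSeq on GRCm38.p6, written 5′ to 3′ on the gene's strand, at chr2:157559828-157560077 (+) for *Nnat*, chr7:62348027-62348276 (+) for *Ndn* and chr7:60140226-60140475 (−) for *Snrpn*.
Nnat: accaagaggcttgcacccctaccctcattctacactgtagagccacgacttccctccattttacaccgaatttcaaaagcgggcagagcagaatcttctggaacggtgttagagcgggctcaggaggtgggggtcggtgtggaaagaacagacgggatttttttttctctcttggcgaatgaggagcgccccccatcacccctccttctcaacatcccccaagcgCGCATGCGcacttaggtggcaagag
Ndn: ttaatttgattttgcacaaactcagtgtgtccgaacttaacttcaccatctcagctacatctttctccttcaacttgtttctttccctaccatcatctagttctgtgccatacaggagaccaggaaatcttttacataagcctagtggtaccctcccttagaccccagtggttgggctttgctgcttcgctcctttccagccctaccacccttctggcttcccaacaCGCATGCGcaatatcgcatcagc
Snrpn: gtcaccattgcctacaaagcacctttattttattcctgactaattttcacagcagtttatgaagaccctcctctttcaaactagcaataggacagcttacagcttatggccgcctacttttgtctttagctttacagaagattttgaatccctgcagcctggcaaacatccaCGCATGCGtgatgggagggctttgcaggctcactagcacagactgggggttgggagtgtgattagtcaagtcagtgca
The start used for *Ndn* lies inside the longer gene span that GENCODE gives. The run begins 25 bases before the start in *Nnat*, 23 in *Ndn* and 78 in the *Snrpn* window shown. All 4 *Snrpn* windows held it, but in the one at chr7:60005150-60005449 it begins 36 bases after the start. The other 3 *Snrpn* windows resemble one another in sequence around the run, so they are not separate finds. It forms the core of the known recognition sequence of the factor NRF1. Of the 8 genes of the set with a window of 300 bases (250 before and 50 after the start), 3 held the run, and the windows of *Peg3*, *Zdbf2*, *Igf2*, *Plagl1* and *Dlk1* did not. Counted by gene, it was present in 2.07% of all 27025 genes with a window. Counted by window, it was present in 1.87% of all 32851 and in 4.07% of the 14281 with at least 10 CpG pairs. *Nnat* had 17 CpG pairs in its window, *Ndn* 11 and *Snrpn* between 2 and 7, where the median window had 7. The run was looked for after the sequences had been read, a match is not evidence of binding, and these data hold no measurement of binding or methylation.

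*Nnat* (chr2:157560078-157562522, GRCm38, + strand) codes for neuronatin, a small membrane protein of the endoplasmic reticulum found in developing neurons, and lies inside an intron of *Blcap*, which is read from the opposite strand. With 60594 UMIs it was the most precisely measured gene of the set. In early neuroblasts it stood at 3321 CPM in the Control library (11108 UMIs) and 3284 CPM in the TBI library (16262 UMIs), and in late neuroblasts at 2533 and 2888 CPM. Cycling progenitors had 1094 and 1249 CPM and RG-like progenitors 1001 and 906 CPM. In each library the level was thus higher in both neuroblast classes than in both progenitor classes, and highest in early neuroblasts. Astrocytes had 576 and 612 CPM. In order over both libraries, the first 5 classes (early neuroblasts, late neuroblasts, cycling progenitors, RG-like progenitors, astrocytes) had intervals apart from the next in line, while OPC at 495 CPM (439 to 557) and *Reln* neurons at 429 CPM (382 to 479) overlapped. Oligodendrocytes (49.1 CPM), endothelial cells (51.6), smooth muscle (30.2) and microglia (28.1) were the lowest.

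Nearly every neuroblast with at least 2000 UMIs held *Nnat* RNA. Cells were thinned to 2000 UMIs, and cells below the thinning depth were left out, here and in later thinned shares. Of 840 early neuroblasts 97.9% (95% exact binomial interval 96.6 to 98.7) and of 866 late neuroblasts 94.8% had at least 1 UMI. The shares were 81.3% of cycling progenitors, 72.6% of RG-like progenitors and 45.6% of astrocytes. Over all 989 late neuroblasts, without thinning, the share was 91.5%. In microglia, where the level was lowest, the share was 3.09% of 97 cells, or 3 cells. Their median was 6463 UMIs before thinning, against 9967 in early neuroblasts. Oligodendrocytes (3.71%) and endothelial cells (3.76%) were within the interval of the microglial share (0.642 to 8.77%). Whether these low shares came from free RNA in the droplets was not tested.

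Within classes, *Nnat* varied between clusters. Among early neuroblasts the cluster led by *Eomes* and *Neurod4*, genes of intermediate progenitors, had 1898 CPM, and the 2 clusters led by *Tubb3* and *Tac2* had 3728 and 3665 CPM. Among late neuroblasts a cluster of 95 cells had 323 CPM, and the other 4 had between 1292 and 3525 CPM. The cluster of 95 cells had a median of 1159 UMIs and was led by *Miat*, *Camk2b* and mitochondrial genes. Among astrocytes the cluster led by *Hopx* and *Fabp7*, genes shared by radial glia and astrocytes, had 1018 CPM, the level of the progenitors, and the other 5 had between 376 and 649 CPM. In the clusters of early neuroblasts the Control and TBI values differed by less than 1.1-fold, with ratios of TBI to Control of 0.96, 1.08 and 1.03.

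**Figure D2:**
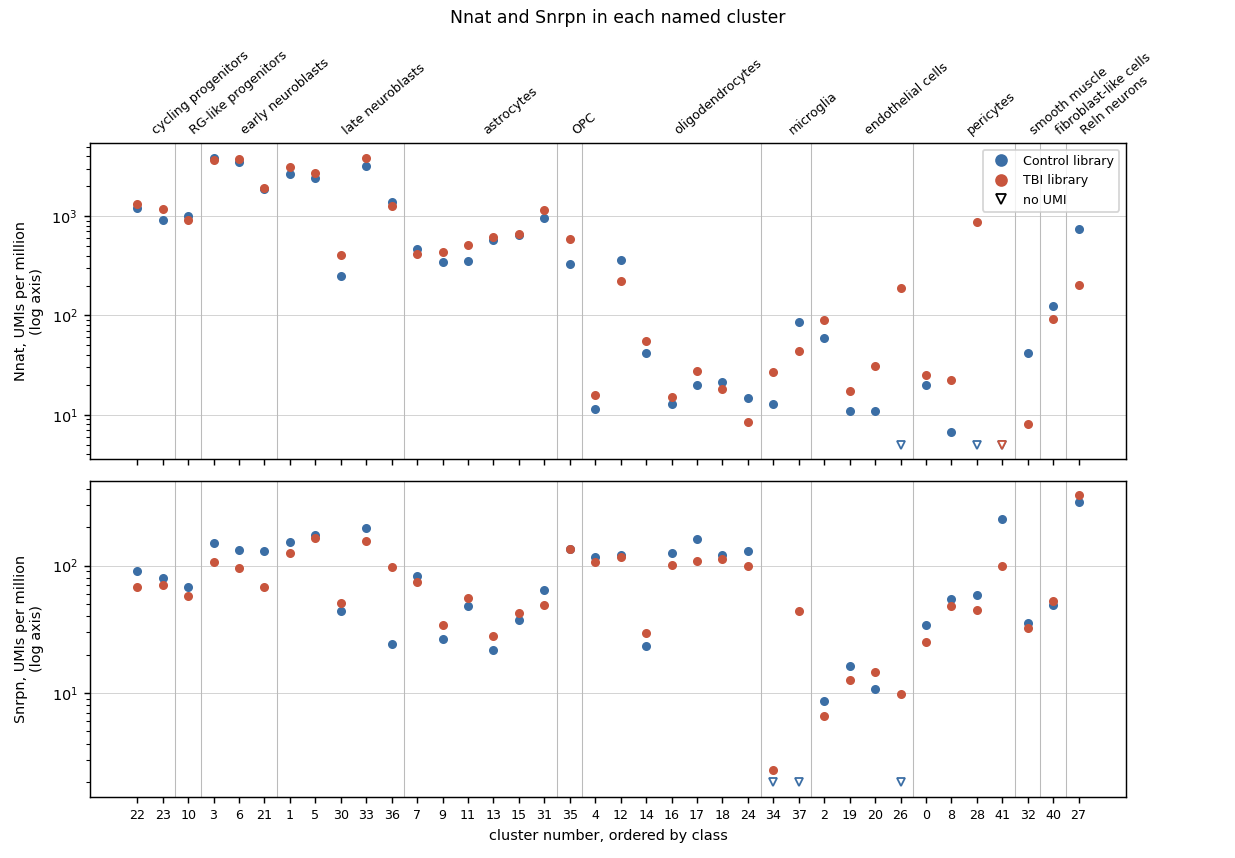
Nnat (top) and Snrpn (bottom) in CPM (log axes) in each named cluster, ordered by cell class, in the Control and the TBI library; open triangles at the bottom mark clusters without a UMI (in cluster 41 Nnat had none in either library). Nnat is high in progenitors and in neuroblasts other than cluster 30 (323 CPM), and stands out in cluster 12 of the oligodendrocytes and cluster 28 of the pericytes. Snrpn is lower in TBI in each of the 3 clusters of early neuroblasts.

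*Ndn* (chr7:62346569-62350262, + strand) codes for necdin, a MAGE family protein known to restrain the cell cycle in neurons. It was highest in *Reln* neurons, with 502 CPM in Control (153 UMIs) and 703 CPM in TBI (289 UMIs). Early neuroblasts followed with 216 and 183 CPM and late neuroblasts with 190 and 171 CPM, and their intervals over both libraries (187 to 206 and 170 to 190) overlapped. RG-like progenitors had 156 and 130 CPM and cycling progenitors 120 and 113 CPM. Astrocytes had 68.0 and 86.1 CPM, with 151 CPM in the cluster led by *Hopx* and 27.4 CPM in the lowest. Thinned to 2000 UMIs, 61.7% of *Reln* neurons, 30.8% of early neuroblasts and 24.2% of RG-like progenitors held a UMI, against 1.03% of microglia.

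*Snrpn* (chr7:59982495-60140219, − strand) codes for SmN, a protein of the splicing machinery of neurons. Its gene overlaps *Snurf* on the same strand, which was listed with 0 UMIs, so no RNA shared by both was counted for *Snurf*. How much of the *Snrpn* count is shared RNA was not tested. *Reln* neurons had 315 CPM in Control and 355 CPM in TBI. Late neuroblasts had 159 and 138 CPM, early neuroblasts 139 and 92.9 CPM, and oligodendrocytes 125 and 105 CPM. Cycling progenitors (85.5 and 69.3 CPM) and RG-like progenitors (67.8 and 58.0 CPM) were lower than both neuroblast classes, and astrocytes had 43.9 and 44.7 CPM. Over both libraries late neuroblasts (148 CPM), OPC (134), oligodendrocytes (113) and early neuroblasts (112) had overlapping intervals from 1 to the next, while early neuroblasts were apart from cycling progenitors (78.6 CPM).

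*Peg3*, *Zdbf2* and *Plagl1* code for zinc finger proteins. *Peg3* (chr7:6703892-6730431, − strand), a large transcriptional regulator known from growth and maternal behaviour, was highest in *Reln* neurons, at 364 CPM in Control and 450 CPM in TBI. Astrocytes followed with 217 and 215 CPM, apart from all later classes. Their clusters differed about 10-fold, from 40.6 CPM in the cluster led by *Clu* and *Aldoc* to 436 CPM in the cluster led by *Nwd1* and *Atp13a4*. Each library gave the same 2 extremes (32.4 and 432 CPM in Control, 51.5 and 447 CPM in TBI). The 2 clusters had medians of 1837 and 2752 UMIs per cell, and the part of depth in their *Peg3* levels was not tested. Late neuroblasts had 130 and 122 CPM, oligodendrocytes 88.8 and 80.8 CPM, cycling progenitors 68.8 and 91.0 CPM, RG-like progenitors 69.1 and 62.4 CPM, and early neuroblasts 61.3 and 83.0 CPM. The intervals of these last 4 classes over both libraries overlapped from 1 to the next, so *Peg3* was not set apart in progenitors.

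*Zdbf2* (chr1:63273265-63314576, + strand) codes for a protein with a DBF4-type zinc finger, whose imprint is known to be set in the early embryo. Most of its UMIs were in neurons and their precursors. *Reln* neurons had 128 CPM in Control and 148 CPM in TBI, RG-like progenitors 38.1 and 26.5 CPM, early neuroblasts 28.4 and 31.9 CPM, cycling progenitors 27.7 and 21.6 CPM, and late neuroblasts 19.8 and 15.8 CPM. Astrocytes had 4.60 and 5.03 CPM, and the 1671 oligodendrocytes held 3 UMIs in all (0.209 CPM).

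*Plagl1* (chr10:13060504-13131694, + strand, also known as *Zac1*) codes for a zinc finger factor that induces cell cycle arrest and is known to regulate a network of other imprinted genes. It had 305 UMIs, of which oligodendrocytes held 85 in Control (15.0 CPM) and 115 in TBI (13.3 CPM). Astrocytes held 35 and 14 UMIs, and 24 of these 49 came from the 92 cells of the cluster led by *Hopx* and *Fabp7*, at 39.8 CPM over both libraries. In that cluster 22 UMIs were in 59 Control cells and 2 in 33 TBI cells, or 52.6 and 10.8 CPM. The highest class, *Reln* neurons at 16.8 CPM (8.66 to 29.3), was not apart from oligodendrocytes at 13.9 CPM, and it came first in the TBI library only (21.9 CPM on 9 UMIs, against 9.84 CPM on 3 UMIs in Control). Early neuroblasts had 0.603 CPM and late neuroblasts 0.736 CPM, so the gene was more than 10 times lower there than in oligodendrocytes.

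*Impact* (chr18:12955852-12992950, + strand) codes for an inhibitor of the stress kinase GCN2. It had the smallest span of the 7 genes, 10.6-fold between its highest class, *Reln* neurons at 216 CPM in Control and 246 CPM in TBI, and its lowest, cycling progenitors at 22.2 and 21.6 CPM. Microglia had 100 and 93.3 CPM, astrocytes 81.8 and 84.5 CPM, oligodendrocytes 50.0 and 41.8 CPM, and early neuroblasts 34.4 and 30.7 CPM. Over both libraries it was higher in glia (55.8 CPM summed over all glial classes) than in neuroblasts (34.8 CPM) and progenitors (25.8 CPM). *Peg3* and *Plagl1* were also higher in glia than in both. For *Peg3* in the TBI library alone, glia (101 CPM, 95.2 to 107) and neuroblasts (99.8 CPM, 93.3 to 107) overlapped.

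*Igf2*, *H19* and *Dlk1*, a growth factor, a noncoding RNA and a signalling protein, were close to absent in the neural classes. *Igf2* (chr7:142650766-142666816, − strand), an insulin-like growth factor, had 7 UMIs in the 30 fibroblast-like cells, 4 in Control and 3 in TBI, which is 60.2 CPM (24.2 to 124), and 14 UMIs in pericytes, at 5.28 CPM (2.89 to 8.86). Of the 3 others, 1 was in RG-like progenitors and 2 in *Reln* neurons, and astrocytes, neuroblasts, oligodendrocytes and endothelial cells had 0. *H19* (chr7:142575529-142578143, − strand), a noncoding RNA that lies 72.6 kb from *Igf2*, had 5 UMIs in late neuroblasts, 4 in cycling progenitors, 1 in early neuroblasts and 2 in unnamed clusters. *Dlk1* (chr12:109452823-109463336, + strand), a membrane protein related to Notch ligands, had 1 UMI each in early neuroblasts, astrocytes and pericytes. The count of 0 for *Igf2* and *H19* in astrocytes allows up to 0.651 CPM of each. Choroid plexus RNA, a known source of *Igf2*, was present among the astrocytes (5 of 5 markers detected, summed at 1427 CPM in Control and 225 CPM in TBI) although *Igf2* was not.

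For each gene with at least 1000 UMIs, the genes with the most similar pattern over the 42 clusters, by Pearson correlation of log2(CPM + 1) among 10137 genes, were named. *Snrpn* was most like *Clip3* (r = 0.93), *Ndn* (0.85) and *Ahi1* (0.84). *Ndn* was most like *Ptov1* (0.92), *Atxn10* (0.87) and *Bri3bp* (0.87). *Nnat* was most like *Apba2* (0.91), *Lhx2* (0.91) and *Dmrta2* (0.91), *Peg3* was most like *Acaca* (0.88), *Arhgap21* (0.88) and *Reps1* (0.88), and *Impact* was most like *Araf* (0.88), *Fam173a* (0.88) and *Erlec1* (0.86). The clusters share their 2 libraries and differ in depth, and the correlations describe the pattern only. Of the 5 genes, only *Snrpn* had another of the set among its 3 nearest.

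The next comparison asked whether any of the genes differed between TBI and Control within a class. A gene was counted in a class where it had at least 100 UMIs over both libraries, which gave 48 pairs of gene and class in 10 classes, and a pair was past the fold where the ratio of TBI to Control was at least 1.5 or at most 0.67 (1/1.5). Of the 48 pairs, 6 were past the fold, 5 of them for *Nnat* and all in classes outside progenitors, neuroblasts and astrocytes.

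Along the neurogenic lineage 0 of 6 genes were past the fold in each of the 4 classes. Of all genes with at least 100 UMIs, 3.17% were past it in cycling progenitors, 2.63% in RG-like progenitors, 2% in early neuroblasts and 2.04% in late neuroblasts, so that a count of 0 among 6 is near the background. In astrocytes 0 of 5 genes were past the fold (2.46% of all genes). *Nnat* had ratios of 1.14 (1.08 to 1.20) in cycling progenitors, 0.90 (0.84 to 0.97) in RG-like progenitors, 0.99 (0.97 to 1.01) in early neuroblasts, 1.14 (1.11 to 1.17) in late neuroblasts and 1.06 (0.98 to 1.15) in astrocytes. The counting intervals for neuroblasts are narrow, but no spread between animals can be set against them.

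The value nearest to the fold was that of *Snrpn* in early neuroblasts, at 139 CPM in Control (466 UMIs) and 92.9 CPM in TBI (460 UMIs), a ratio of 0.667 (0.585 to 0.760) that was just short of the limit. It was lower in TBI in each of the 3 clusters of the class, with ratios of 0.71, 0.72 and 0.52, and no single cell carried it, since the 5 cells richest in *Snrpn* held 6.87% of its UMIs in Control and 4.78% in TBI. The share of cells with a UMI at 2000 UMIs was 24.5% of 290 cells in Control (19.6 to 29.9) and 14.2% of 550 cells in TBI (11.4 to 17.4). Its ratio passed the limit in 5 of 12 alternatives. These were no cell filter, no integration, a coarser clustering and both other scalings (0.66 at the lowest). In the rest it stayed short of the limit, and it was 0.698 at the highest, without cells over 10% mitochondrial UMIs. *Snrpn* was below 1 in 6 of the 8 classes in which it was counted, with the interval below 1 in 3, early neuroblasts, late neuroblasts (0.87, 0.77 to 0.98) and oligodendrocytes (0.84, 0.76 to 0.93).

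*Peg3* had the opposite direction in early neuroblasts and cycling progenitors. It was at 61.3 CPM in Control and 83.0 CPM in TBI in early neuroblasts, a ratio of 1.35 (1.14 to 1.61), with 1.36, 1.35 and 1.43 in the 3 clusters, and its ratio was 1.32 (1.07 to 1.63) in cycling progenitors. The share of early neuroblasts with a *Peg3* UMI hardly differed at 2000 UMIs. It was 13.1% in Control (9.44 to 17.5) and 13.5% in TBI (10.7 to 16.6). Without cells over 10% mitochondrial UMIs the ratio in early neuroblasts was 1.19. In RG-like progenitors the ratio was 0.90 (0.69 to 1.19) and in late neuroblasts 0.94 (0.82 to 1.08), so the direction did not extend over the lineage. *Ndn* was at 0.85 (0.77 to 0.935) in early neuroblasts, 0.84 (0.70 to 1.01) in RG-like progenitors and 0.90 (0.80 to 1.01) in late neuroblasts, and at 1.27 (1.018 to 1.57) in astrocytes. *Zdbf2* ranged from 0.70 to 1.16 over 5 classes and *Impact* from 0.81 to 1.14 over 9, and apart from *Impact* in oligodendrocytes (0.835, 0.713 to 0.979) their intervals held 1.

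**Figure D3:**
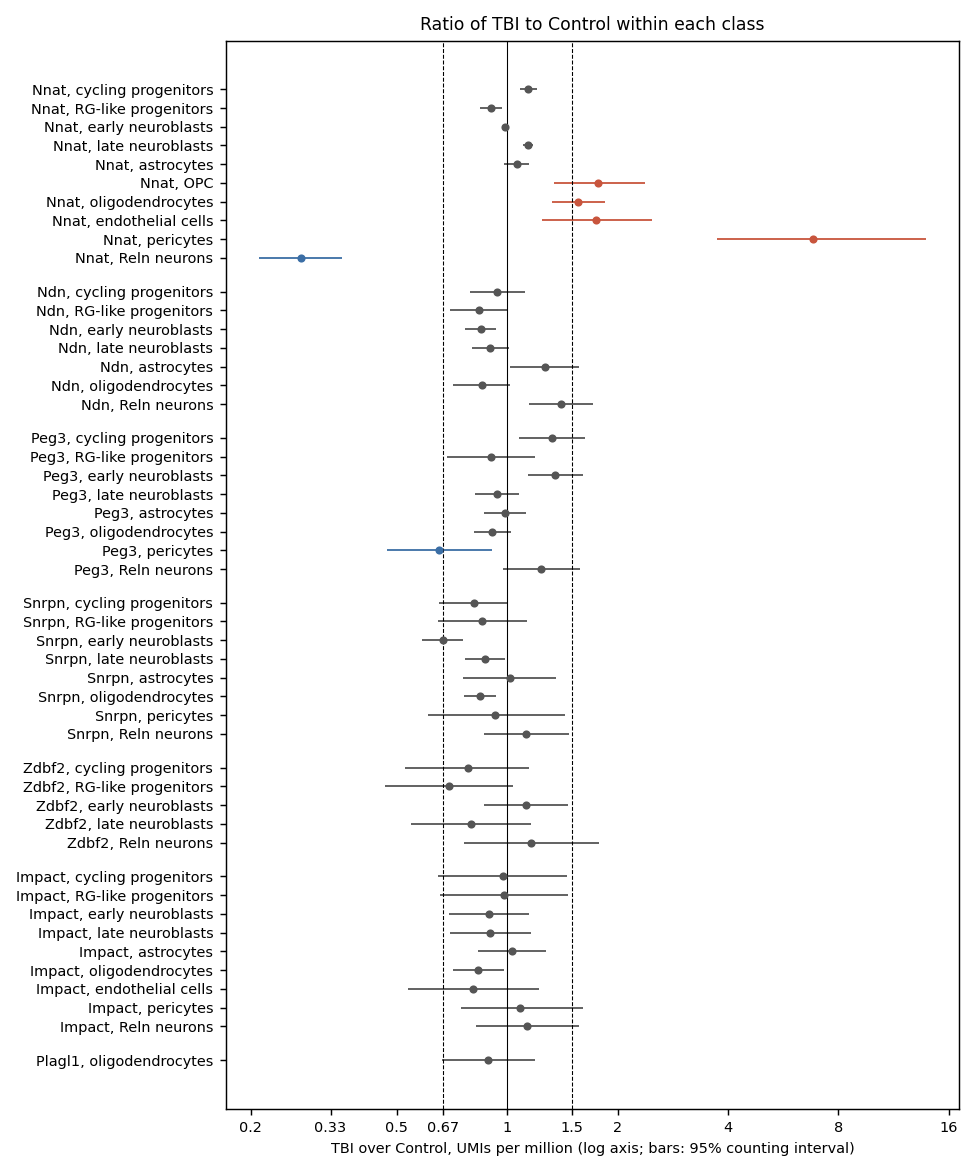
Ratio of TBI to Control in CPM (log axis) for the 48 pairs of gene and class with at least 100 UMIs, with 95% exact binomial intervals; dashed lines mark 1.5 and 1/1.5, and red and blue points are past them. Nnat is past the fold in 5 classes outside the neurogenic lineage, Peg3 in pericytes, and Snrpn in early neuroblasts lies at the lower line.

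Outside the lineage *Nnat* was higher in TBI in 4 classes. It had 330 CPM in Control and 586 CPM in TBI in OPC (ratio 1.77, 1.34 to 2.37), where 26.6% of all genes were past the fold and *Nnat* is not set apart from them. It had 36.7 and 57.3 CPM in oligodendrocytes (1.56, 1.33 to 1.85, 1.79% of all genes), 35.2 and 61.4 CPM in endothelial cells (1.74, 1.25 to 2.47, 2.42% of all genes), and 15.9 and 109 CPM in pericytes (6.82, 3.74 to 13.9, 6.2% of all genes). In *Reln* neurons it was lower in TBI, at 734 and 202 CPM (0.27, 0.21 to 0.36, 11.1% of all genes). *Nnat* was the only one of the genes past the fold in these classes, of 1 counted in OPC, 6 in oligodendrocytes, 2 in endothelial cells and 6 in *Reln* neurons, while *Peg3* was past it as well among the 4 counted in pericytes.

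Apart from those in OPC, these *Nnat* UMIs came from few cells. In OPC 17 of 25 Control cells and 43 of 56 TBI cells held at least 1. In pericytes 10 of 207 Control cells held 11 UMIs and 50 of 640 TBI cells held 213, of which 39 lay in 1 cell and 122 in 5. In *Reln* neurons 12 of 33 Control cells held 224 UMIs, 197 of them in 5 cells, and 21 of 77 TBI cells held 83. The 5 richest cells held 57.7% of the Control UMIs and 45.8% of the TBI UMIs in oligodendrocytes, and 85.4% and 60.4% in endothelial cells.

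The summed markers of early neuroblasts, among those of other cell types, moved with *Nnat* in 4 of these 5 classes. Which cells this RNA came from was not tested. The 8 markers of early neuroblasts summed to 801 CPM in Control and 1571 CPM in TBI in OPC (6 of 8 higher in TBI, *Neurod4* at 0), to 145 and 202 CPM in oligodendrocytes (6 of 8 higher, none at 0), to 190 and 614 CPM in pericytes (6 of 8 higher, *Neurod4* at 0), and to 3590 and 793 CPM in *Reln* neurons (0 of 8 higher, *Neurod4* at 0). In endothelial cells they summed to 307 and 275 CPM (3 of 8 higher, none at 0). Markers of other cell types differed between the libraries in the same classes. The 8 oligodendrocyte markers summed to 27684 CPM in Control and 7021 CPM in TBI in OPC (1 of 8 higher), to 2400 and 336 CPM in *Reln* neurons (0 of 8 higher), and to 2731 and 4507 CPM in pericytes (8 of 8 higher). The 10 astrocyte markers summed to 685 and 296 CPM in pericytes (1 of 10 higher), and the 6 endothelial markers to 9.84 and 251 CPM in *Reln* neurons (5 of 6 higher) and to 39.5 and 98.5 CPM in oligodendrocytes (6 of 6 higher). In endothelial cells the 8 pericyte markers summed to 576 and 944 CPM (7 of 8 higher). Their part in the *Nnat* values was not tested.

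Without the cells that held a UMI of *Dcx*, the doublecortin gene of neuroblasts, *Nnat* was at 16.4 CPM in Control and 21.5 CPM in TBI in oligodendrocytes (1.32, 1.01 to 1.72), at 16.1 and 22.9 CPM in pericytes (1.42, 0.72 to 3.06), and at 78.7 and 95.7 CPM in *Reln* neurons (1.22, 0.62 to 2.52). In these 3 classes the ratio was then within the fold, and in *Reln* neurons its direction turned, on 13 Control and 33 TBI UMIs. In OPC it was 1.66 (1.11 to 2.503), at 263 and 436 CPM, and in endothelial cells 3.16 (1.69 to 6.43), on 12 Control and 64 TBI UMIs.

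**Figure D4:**
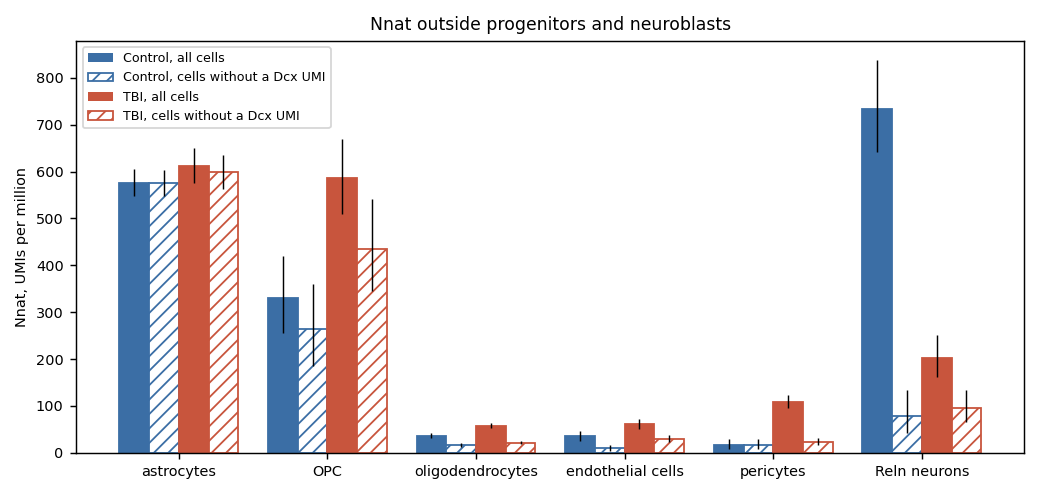
Nnat in CPM (linear axis from 0) in 6 classes outside progenitors and neuroblasts, in each library, over all cells (filled bars) and without the cells that held a Dcx UMI (hatched bars), with 95% Poisson intervals. Astrocytes keep their level without these cells, and in Reln neurons the Control value is 734 with them and 78.7 without.

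Single clusters also touched these values. In oligodendrocytes a cluster of 36 Control and 229 TBI cells had 244 CPM of *Nnat*, while the other 6 had between 10.9 and 48.8 CPM. Within that cluster *Nnat* was lower in TBI, at 362 CPM in Control and 221 CPM in TBI (0.61, 0.49 to 0.76), and in the other 6 together it was at 16.6 and 17.9 CPM (1.08, 0.81 to 1.43). In pericytes a cluster of 19 Control and 86 TBI cells, with a median of 1351 UMIs per cell, also differed in its share of cells. It held 0 *Nnat* UMIs in Control and 175 of the 213 UMIs in TBI. In the class 122 of these 213 lay in 5 cells. Whether the libraries differed within the cluster was not tested, and it had only 19 Control cells. The largest cluster (146 Control and 284 TBI cells) had 20.0 and 25.0 CPM (1.25, 0.55 to 3.01). Removing doublets lowered the *Nnat* ratio of oligodendrocytes to 1.01.

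*Peg3* in pericytes was the sixth pair past the fold, at 85.4 CPM in Control (59 UMIs) and 55.6 CPM in TBI (109 UMIs), a ratio of 0.65 (0.47 to 0.91). Within the largest cluster it was 88.0 and 55.2 CPM (0.63, 0.40 to 0.98), and in the cluster led by *Hspa1a*, of 40 Control and 257 TBI cells, 47.4 and 43.7 CPM (0.92, 0.41 to 2.45). The class holds these 2 clusters in different parts in the 2 libraries, and the part of this in the *Peg3* value was not tested.

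*Reln* neurons carried the highest level of 6 of the 7 genes in both libraries together. *Plagl1*, with 12 UMIs there (9.84 CPM in Control and 21.9 CPM in TBI), was too low to be counted. Of the 6 genes counted in this class, only *Nnat* was past the fold. Of the other 5, the nearest was *Ndn* at 1.40 (1.15 to 1.72), followed by *Peg3* at 1.24 (0.97 to 1.58). *Zdbf2* was at 1.16 (0.76 to 1.78), *Impact* at 1.14 (0.82 to 1.57) and *Snrpn* at 1.13 (0.866 to 1.475). These 5 lay above 1 where *Nnat* and the 7 neuroblast markers detected lay below it, and without the cells holding *Dcx* they ranged from 0.90 to 1.18 for *Impact*, *Snrpn*, *Peg3* and *Ndn*, the other having under 100 UMIs then. The 33 Control and 77 TBI cells of this class set the limit of these values.

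The neighbours of the genes on their chromosomes did not follow 1 pattern. *Blcap*, whose intron holds *Nnat*, had 79.2 CPM in early neuroblasts and 35.6 CPM in cycling progenitors, and differed 6.13-fold between its highest and lowest class where *Nnat* differed 117-fold. *Usp29*, which starts 0.147 kb from *Peg3* on the opposite strand, was highest in late neuroblasts (101 CPM) and *Reln* neurons (99.1 CPM) and had 4.12 CPM in astrocytes, the class that came second for *Peg3*, and *Zim1* of the same region had 10.6 CPM in astrocytes and at most 1.77 CPM in any other class. In the region of *Snrpn* and *Ndn*, *Ube3a*, which codes for a ubiquitin ligase, was found in all classes, from 93.8 CPM in microglia to 525 CPM in *Reln* neurons, *Mkrn3* had 330 UMIs in all and *Magel2* 1.

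*Meg3*, the noncoding RNA 77.7 kb from *Dlk1*, was abundant in classes with at most 1 UMI of *Dlk1*. It stood at 7788 CPM in Control and 11254 CPM in TBI in *Reln* neurons, 714 and 815 CPM in pericytes and 526 and 659 CPM in OPC, while cycling progenitors had 1.26 CPM over both libraries. *Mirg* of the same region had 32.1 CPM in *Reln* neurons, *Rtl1* and *Dio3* had 0 UMIs, and *Rian* was not analysed here. In early neuroblasts *Meg3* had 2 UMIs in Control and 118 in TBI, of which 99 lay in 1 cell, a ratio of 39.9. No interval is given, since it would treat the UMIs of that cell as independent counts. Without that cell the pair would fall under the UMI minimum, so the ratio does not describe the class. In late neuroblasts *Meg3* had 13.8 and 33.9 CPM (2.46, 1.72 to 3.59).

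Near *Igf2* and *H19*, the cell cycle inhibitor *Cdkn1c* was highest in *Reln* neurons (387 CPM), smooth muscle (299) and endothelial cells (227) and low in cycling (10.0) and RG-like progenitors (12.2). It was past the fold in *Reln* neurons, at 279 CPM in Control and 467 CPM in TBI (1.68, 1.29 to 2.19). *Kcnq1ot1* was highest in *Reln* neurons (2199 CPM), *Cd81* in oligodendrocytes (2777 CPM), and *Phlda2* had 2 UMIs. Of the genes linked to *Plagl1*, *Igf2r* (94.7 CPM) and *Grb10* (79.2 CPM) were highest in pericytes, *Gnas* in endothelial cells (1970 CPM), *Sgce* in fibroblast-like cells (138 CPM) and *Mest* in late neuroblasts (72.0 CPM), with 62.8 CPM in RG-like progenitors and 1.81 CPM in oligodendrocytes.

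**Figure D5:**
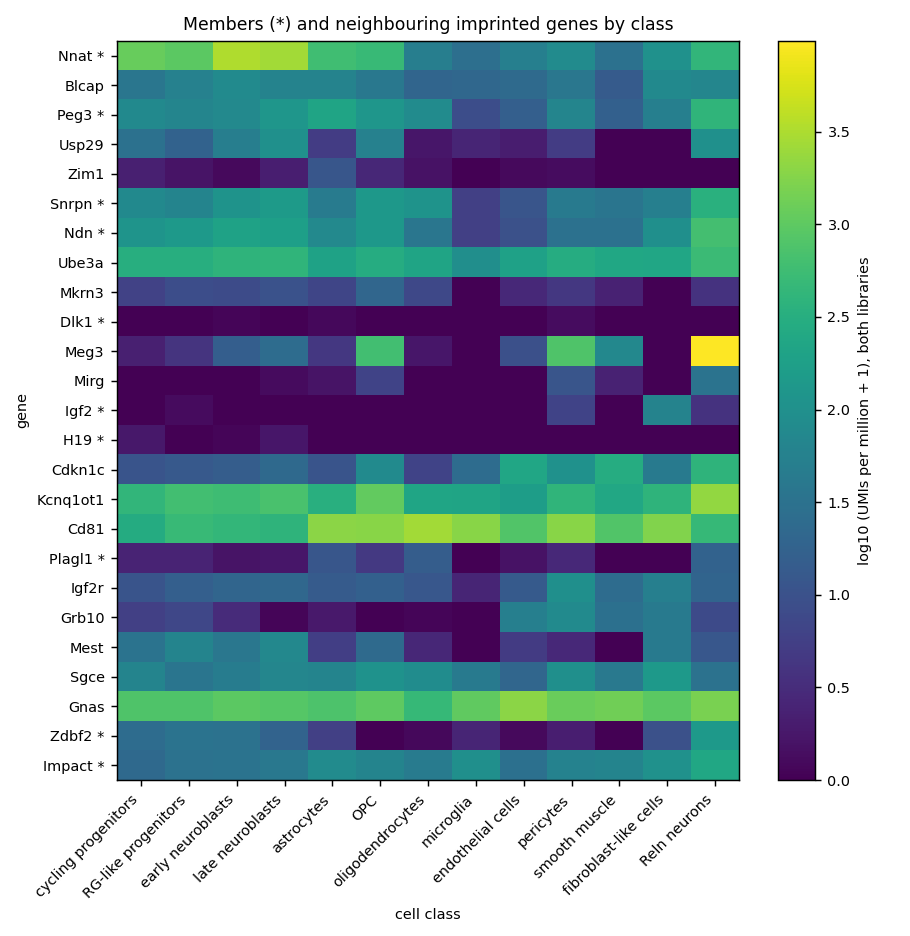
Level of the genes of the set (asterisks) and of named neighbouring or linked imprinted genes in 13 cell classes, as log10 of CPM plus 1 over both libraries. Meg3 is brightest in Reln neurons, Dlk1, H19 and Igf2 are dark in the neural classes, and Grb10 and Igf2r are brightest in vascular classes.

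Over a wider list of 44 other imprinted genes, 42 were found in the tables and 28 had at least 100 UMIs. In the classes where they reached 100 UMIs they gave 157 pairs of gene and class, of which 5 were past the fold. Upwards these were *Meg3* in early and late neuroblasts, *Inpp5f* in pericytes and *Cdkn1c* in *Reln* neurons, and downwards *Cd81* in OPC. In early neuroblasts the cell richest in *Meg3* held 99 of the 118 TBI UMIs. Without that cell this pair would not have been counted. Of all genes, 2% passed the fold in early neuroblasts, 2.04% in late neuroblasts, 6.2% in pericytes, 11.1% in *Reln* neurons and 26.6% in OPC. In cycling progenitors, RG-like progenitors, astrocytes, oligodendrocytes and endothelial cells 0 of 15, 14, 15, 19 and 14 were past it. There 3.17%, 2.63%, 2.46%, 1.79% and 2.42% of all genes were past it, so these counts of 0 are near the background. Their median log2 ratio in early neuroblasts was -0.01, against -0.09 for the 6 genes of the set and 0.01 for all 8246 genes tested.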

How the data were processed

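Per the labels and the study's methods, Nestin-GFP+ cells of the dentate gyrus were sorted and pooled by condition, and, per the submitters' processing notes, reads were counted with Cell Ranger 3.0.2 on GRCm38 (mm10). The deposited tables hold counts of UMIs per gene and barcode, whole numbers without normalization. Each table was assigned to a condition by barcodes listed with the study (356 Control, all in the Control library and 0 in the other; 320 TBI likewise). Cells with at least 200 genes and UMIs within 3 median absolute deviations of the library median (log scale) were kept. Doublets called by Scrublet (in Scanpy 1.11.5; 1.25% of Control and 2.16% of TBI cells) stayed in. Cells were clustered in Seurat 5.3.0 (integration of 2000 features, 20 components, resolution 3.0) without Malat1 and 54 imprinted genes. Clusters were named by mean standardized marker level, and stayed unnamed with under 3 markers detected, with more markers of another class among the 10 leading genes, or with a low UMI count (median under 1/3 of the library's) and no own marker there. UMIs were summed by class. Levels have exact Poisson intervals, shares Clopper-Pearson intervals and ratios exact binomial intervals. PCR duplicates are removed by UMIs, and the intervals cover counting error only. A count of 0 allows 3 counts. With 1 library per condition no test was made. Alternatives changed the cell filter, doublets, clustering, scaling, the UMI minimum and the thinning depth. The ratios and intervals were run on simulated class sums drawn from the Poisson model that the intervals assume. That run cannot show that the intervals hold where the UMIs of a gene gather in few cells. TMM factors came from edgeR 4.0.16. Gene positions are from GENCODE M21. The genes named were the 10 of the set, listed neighbours and linked genes, and the 3 most alike of each gene with at least 1000 UMIs. Other genes were named after their values were seen. The members, lists and marker sets were chosen with earlier results of these data known.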

Additional observations from a re-analysis of the deposited data

Results flagged for a closer look

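*Nnat* was past 1.5-fold in opposite directions in different classes. Its ratios of TBI to Control were 1.56 in oligodendrocytes, 1.74 in endothelial cells, 1.77 in OPC and 6.82 in pericytes against 0.27 in *Reln* neurons. Without cells holding *Dcx* they were within the fold in oligodendrocytes (1.32), pericytes (1.42) and *Reln* neurons (1.22). They were then 3.16 in endothelial cells and 1.66 in OPC, a class where 26.6% of all genes were past the fold with all cells. The difference between the classes was not tested, since each condition is 1 library.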

How the results depend on the processing

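No paired analysis was possible because each condition was pooled into 1 library and no result comes from a test. The class with the highest level was the same for all 7 genes under 10 of 11 alternatives that bear on it, and for 6 of 7 without cells holding *Dcx* outside the lineage, where *Plagl1* was highest in oligodendrocytes. The count of 6 pairs past the fold became 3 without doublets, 2 without cells holding *Dcx* and 3 without the 4 clusters of over 80% TBI cells. It ranged from 4 to 9 under the other 10. These last 2 choices, and leaving out clusters of low UMI count, were made after seeing the data. Some of the losses are pairs that fell under 100 UMIs and were not counted. *Nnat* in pericytes and in endothelial cells was lost only in this way. The same held for *Nnat* in *Reln* neurons without cells holding *Dcx* and for *Peg3* in pericytes without the TBI-rich clusters. Of these, *Nnat* in endothelial cells without cells holding *Dcx* (ratio 3.16) and *Peg3* in pericytes without the TBI-rich clusters (0.627) were still past the fold. Without cells holding *Dcx*, *Nnat* in pericytes (1.42) and *Reln* neurons (1.22) was within it. The share of cells with a UMI follows the depth. Thinned to 1000 UMIs it was 87.0% for *Nnat* in early neuroblasts, and in *Reln* neurons 37.4% for *Peg3*, 30.8% for *Ndn*, 9.35% for *Zdbf2*, 15.9% for *Impact* and 26.2% for *Snrpn*. Without thinning these were 99.9%, 78.2%, 75.5%, 50.9%, 65.5% and 70.9%, against 97.9%, 48.9%, 61.7%, 25.5%, 29.8% and 36.2% at 2000 UMIs. Of 551 single ratios with at least 100 UMIs under the alternatives, 536 stayed within the counting interval of the reported value. Among ratios under that minimum, *Nnat* in *Reln* neurons turned from 0.275 to 1.22 without cells holding *Dcx*.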
